A study of Mus musculus with 6 samples.

Results

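Meningeal and fibroblast genes are a set of 37 genes that mark the membranes around the brain and the fibroblasts within them. The set was given as a list of gene symbols, and each probe set that the array annotation assigns to exactly 1 of those symbols was taken, without any use of its measured value. The genes were listed with earlier results of these data known, so the shares over all genes given below are descriptive and test nothing. All 37 genes were measured, by 70 of the 45037 probe sets tested, and they make up 37 of the 18193 genes with a probe set of their own. A gene is described by its main probe set, the one with the highest mean over the 6 arrays. For 23 of the 37 genes that mean was at least 6 on the log2 scale. The other 14 had a lower mean.

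The study measured RNA of microdissected arcuate hypothalamus on Affymetrix Mouse Genome 430 2.0 arrays, 3 from control mice (genotype label Ctrl) and 3 from POMCDicerKO mice, whose Pomc-expressing cells lack Dicer, the enzyme that cuts microRNA precursors. All mice were 2 weeks old, on a mixed C57Bl/6J, FVB/N and 129 background, fed standard chow, and no treatment set the groups apart. The sources used here do not give the alleles of the controls, the promoter fragment that drove the deletion, or whether a sample was 1 animal or a pool. The series' design text calls the 3 samples of each group independent, and p-values measure the spread between them.

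The meninges consist of the dura, the arachnoid and the pia, and the inner layers lie directly on the base of the hypothalamus. Their fibroblasts lay down collagens and small leucine-rich proteoglycans, take up and export solutes across the arachnoid barrier, make retinoic acid, and secrete prostaglandin D synthase and insulin-like growth factor 2 into the cerebrospinal fluid. In a bulk sample, fewer cells of a type and less RNA per cell cannot be told apart.

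The arrays resembled each other closely, and any pair had a Pearson r of 0.994 to 0.997 across probe sets, and 0 pairs were identical. Probe sets are not replicates. Genes of the labelled tissue were bright on each array, with Pomc between 9.35 and 10.87 and Npy between 10.38 and 12.32. Across all 45037 probe sets, limma with Benjamini-Hochberg adjustment called 0 at an adjusted p under 0.05 (0%), and 1098 (2.44%) had an unadjusted p under 0.05.

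On average the 37 genes were high on control arrays 1 and 2 and low on the other 4 arrays, whatever their genotype. Zic1 and Fbln1 were among the exceptions. Controls 1 and 2 held the 2 highest values for 35 of 37 genes (94.6%), against 7.11% of all genes. Control 3 was the lowest of the 3 controls for 37 of 37, against 35.9% of all genes. Averaged over the 37 genes, each set against its own control mean, control 1 stood at 0.287 and control 2 at 0.284 on the log2 scale, while control 3 stood at -0.571. The POMCDicerKO arrays stood at -0.436, -0.572 and -0.723. Control 3 therefore lay between the POMCDicerKO arrays, at the level of array 2 and far below the other controls.

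**Figure D1:**
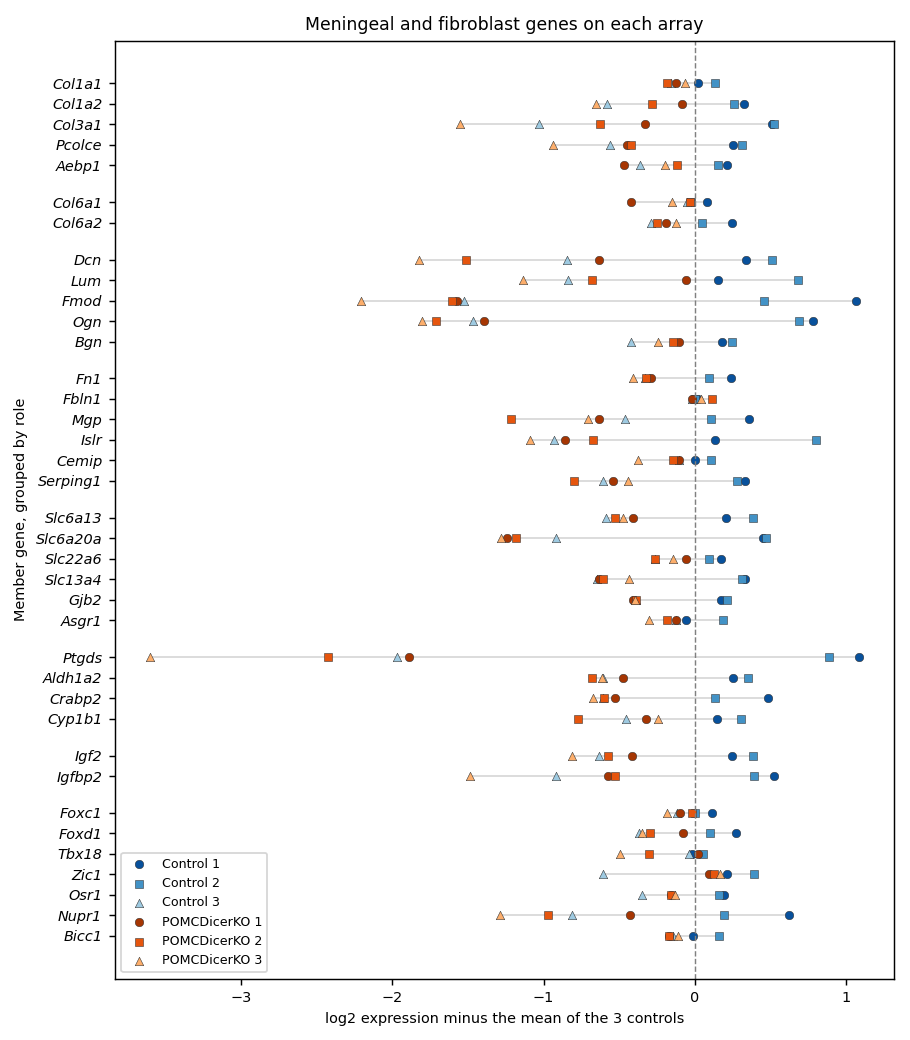
Log2 expression of the main probe set of each of the 37 genes on each of the 6 arrays, minus the mean of that gene's 3 control values (horizontal axis), with genes grouped by role (vertical axis). Blue symbols are controls and orange symbols POMCDicerKO arrays. Controls 1 and 2 lie to the right for 35 genes, and control 3 lies among or beside the POMCDicerKO arrays.

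Comparing the genotypes, 35 of 37 genes had a lower POMCDicerKO mean, where 55.1% of all genes did, and the median log2 fold change was -0.45 against -0.01 over all genes. At least 1.5-fold lower were 16 of the 37, against 0.209% of all genes, and 0 were 1.5-fold higher. No member passed limma's threshold: 0 of 70 probe sets had an adjusted p under 0.05, and the adjusted p of every main probe set was 0.9999. At an unadjusted p under 0.05 there were 14 of 37 main probe sets, all lower, where 1.2% of all probe sets were lower at that p. The groups were fully separate at 5 genes (13.5%, against 3.86% of all genes with POMCDicerKO lower), namely Fmod, Mgp, Slc6a20a, Gjb2 and Asgr1. The control SD exceeded the POMCDicerKO SD at 33 of 37 genes, against 47.7% of all genes.

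The group difference rested on controls 1 and 2. Those 2 arrays were already the highest at most of the 37 genes, so the results of leaving controls out largely follow from that order. They are no separate support for it. With control 3 as the only control, 15 of 37 genes were lower and 22 higher in POMCDicerKO, and the median log2 fold change was 0.021. Control 3 lay outside the POMCDicerKO range at 12 genes, above it at 5 and below it at 7, while 43.6% of all genes had control 3 outside that range. Limma then assumes that the lone control varies like the POMCDicerKO arrays. Without control 3 the median was -0.67, groups were separate at 35 genes with POMCDicerKO lower (9.5% of all genes on the same arrays), and 2 probe sets passed, those of Ogn (adjusted p = 0.0142) and Slc6a20a (adjusted p = 0.00629), which were the only 2 of all 45037 (0.00444%). How much meninges each dissection held was not tested by a measure other than these transcripts.

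**Figure D2:**
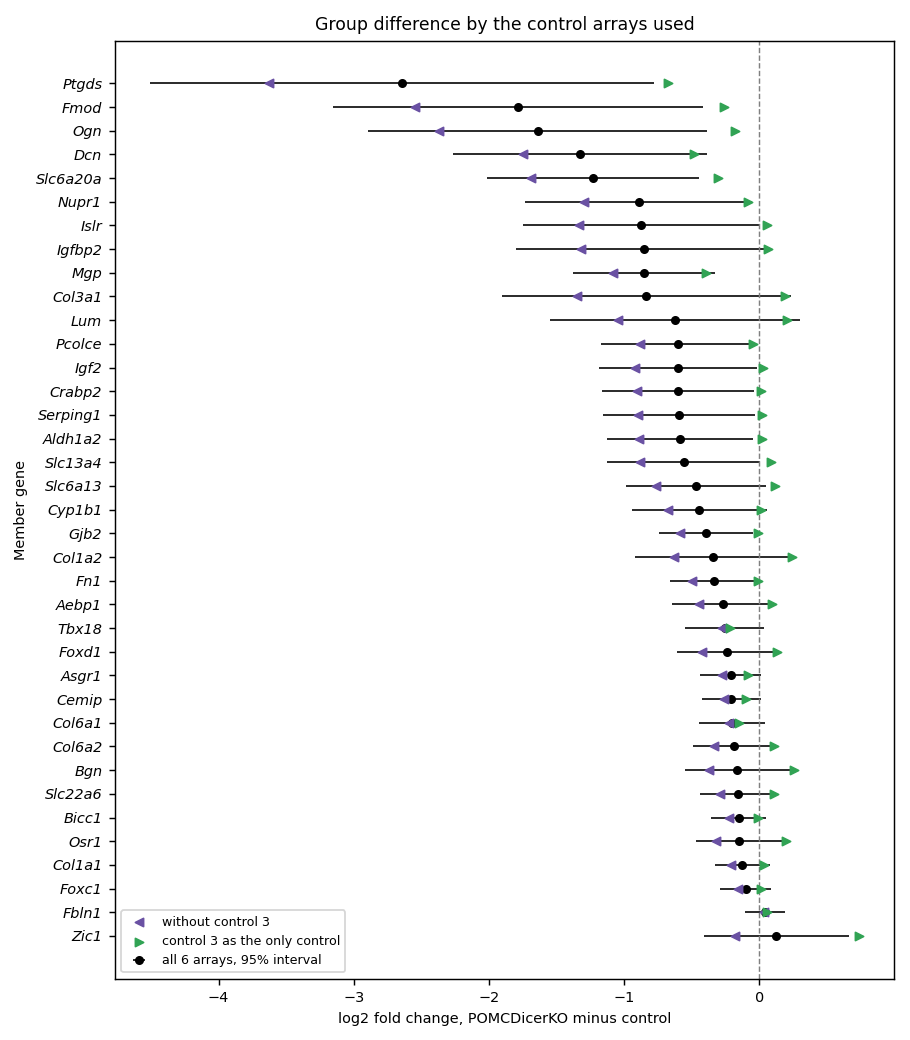
Log2 fold change of each gene, POMCDicerKO minus control (horizontal axis), with limma's 95% interval over all 6 arrays (black), without control 3 (purple) and with control 3 as the only control (green). The black points lie below 0 for 35 genes, and the green points gather around 0, with 15 below and 22 above it.

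Promoter windows are shown for 5 members because the data set them apart from each other: Ptgds, Ogn and Slc6a20a were among the genes with the widest differences, Col1a2 is a chain of the main fibrillar collagen, and Zic1 had a group difference of the other sign. RefSeq windows of 300 bases, 250 before and 50 from the transcript start on, were found for 28 of the 37 genes, in 37 windows (assembly GRCm38.p6). Each is printed in the direction of transcription with matches to TATAAA (the TATA box), CCAAT and GGGCGG (the GC box), read on both strands, in capitals.
Ptgds, chr2:25469700-25469999, minus strand: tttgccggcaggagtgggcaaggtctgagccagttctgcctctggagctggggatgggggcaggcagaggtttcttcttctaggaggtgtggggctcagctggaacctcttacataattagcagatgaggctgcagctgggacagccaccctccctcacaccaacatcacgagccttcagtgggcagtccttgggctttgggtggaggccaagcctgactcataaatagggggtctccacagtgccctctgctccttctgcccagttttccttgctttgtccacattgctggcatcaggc
Ogn, chr13:49607765-49608064, plus strand: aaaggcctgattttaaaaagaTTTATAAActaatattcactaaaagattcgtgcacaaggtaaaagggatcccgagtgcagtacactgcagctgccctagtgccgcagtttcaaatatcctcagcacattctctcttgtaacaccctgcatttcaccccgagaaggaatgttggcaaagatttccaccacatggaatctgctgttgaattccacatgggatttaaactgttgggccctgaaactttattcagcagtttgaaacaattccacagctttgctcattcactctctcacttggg
Slc6a20a, chr9:123678783-123679082, minus strand: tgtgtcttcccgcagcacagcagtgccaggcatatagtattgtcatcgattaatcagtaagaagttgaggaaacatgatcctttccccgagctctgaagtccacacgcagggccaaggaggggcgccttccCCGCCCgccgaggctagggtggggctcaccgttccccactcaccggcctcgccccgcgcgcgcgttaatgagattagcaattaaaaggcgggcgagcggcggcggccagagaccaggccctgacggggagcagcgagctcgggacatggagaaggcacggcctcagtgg
Col1a2, chr6:4505368-4505667, plus strand: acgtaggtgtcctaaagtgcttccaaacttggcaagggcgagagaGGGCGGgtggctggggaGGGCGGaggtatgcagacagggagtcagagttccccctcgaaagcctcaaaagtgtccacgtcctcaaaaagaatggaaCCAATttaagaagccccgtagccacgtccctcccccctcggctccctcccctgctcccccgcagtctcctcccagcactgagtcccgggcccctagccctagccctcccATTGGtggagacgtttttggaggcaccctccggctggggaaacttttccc
Zic1, chr9:91365719-91366018, minus strand: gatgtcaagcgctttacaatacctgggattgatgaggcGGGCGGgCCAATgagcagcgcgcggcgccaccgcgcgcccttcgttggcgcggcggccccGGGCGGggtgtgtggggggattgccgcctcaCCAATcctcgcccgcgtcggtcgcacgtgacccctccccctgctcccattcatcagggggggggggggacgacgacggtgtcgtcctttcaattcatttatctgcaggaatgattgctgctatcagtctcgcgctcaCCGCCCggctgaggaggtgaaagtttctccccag
The window of Ptgds, the gene with the largest difference, had no match to these letters. That of Ogn held TATAAA on both strands, overlapping each other. Slc6a20a had 1 GGGCGG match, on the minus strand relative to transcription, Col1a2 had 2 CCAAT and 2 GGGCGG matches, and Zic1 had 2 and 3. Over the 37 windows, GGGCGG was present in 20 (54.1%) against 35.7% of all 32851 windows, CCAAT in 13 (35.1%) against 37.4%, and TATAAA in 3 (8.11%) against 13.6%. A match is a description of the letters and does not mark a working site.

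Ptgds differed most of the 37 genes. It makes prostaglandin D2 and is secreted into the cerebrospinal fluid by arachnoid cells; oligodendrocytes and choroid plexus make it too. Its main probe set, 1423859_a_at, read 13.63, 13.43 and 10.58 in controls 1 to 3 and 10.66, 10.12 and 8.95 in POMCDicerKO. The first and second control stood 3.05 and 2.85 above control 3, which lay between POMCDicerKO arrays 1 and 2. The group means were 12.55 ± 1.71 and 9.91 ± 0.87 (SD, n = 3 each), which differed by -2.64 in log2 (standard error 0.80), with a 95% interval from -4.50 to -0.78. A further probe set, 1423860_at, read 12.39, 12.05 and 8.68 in controls and 8.61, 7.91 and 6.37 in POMCDicerKO. There the groups did not overlap, by a gap of 0.062, and the two-sided exact permutation p was 0.1. That is the smallest that 3 against 3 arrays allow, and fully separate groups always give it. At the main probe set the two-sided exact permutation p was 0.2. With control 3 as the only control, Ptgds was at -0.68.

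The 3 genes of retinoic acid and steroid metabolism were dimmer, with controls 1 and 2 highest and the other 4 arrays in varying order. Aldh1a2, which oxidises retinaldehyde to retinoic acid, had control values of 6.00, 6.10 and 5.14 against 5.07 to 5.27 in POMCDicerKO. Crabp2, which carries retinoic acid to its nuclear receptor, had 5.89, 5.54 and 4.80 against 4.74 to 4.88. Cyp1b1, a cytochrome that oxidises steroids and retinoids, read 5.97, 6.13 and 5.37 in controls and 5.50, 5.05 and 5.58 in POMCDicerKO. Log2 fold changes were -0.59, -0.60 and -0.45. Control 3 lay within the POMCDicerKO range for all 3, and with control 3 alone as control the 3 genes were at 0.02, 0.01 and 0.01. A further Cyp1b1 probe set at a mean of 4.57 gave 0.06.

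Small leucine-rich proteoglycans, which bind collagen fibrils and set their spacing, were all lower on average, 5 of 5, with a median of -1.33. Dcn, decorin, read 9.02, 9.19 and 7.84 in controls and 8.05, 7.17 and 6.86 in POMCDicerKO. Only POMCDicerKO array 1 reached above control 3. Its means were 8.69 ± 0.73 and 7.36 ± 0.62 (SD, n = 3 each), and differed by -1.33 in log2 (standard error 0.40), and it was still at -0.48 with control 3 as the only control. Its further probe set, at a mean of 4.53, gave 0.05. Ogn, osteoglycin, read 7.15, 7.06 and 4.91 in controls and 4.98, 4.66 and 4.57 in POMCDicerKO. Both other controls thus exceeded every other array by more than 2 log2 units. The log2 fold change was -1.64 (standard error 0.54), and -0.72 at the probe set 1419662_at.

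Fmod, fibromodulin, is represented by 6 probe sets, and their sizes disagreed. Its main probe set, 1456084_x_at, read 8.39, 7.78 and 5.80 in controls and 5.75, 5.72 and 5.12 in POMCDicerKO, a log2 fold change of -1.79 (standard error 0.59). The suffix x_at means that some of its probes can bind other transcripts. The other 5 gave -0.29 (1437324_x_at), -0.54 (1437685_x_at), -0.60 (1415939_at), -0.61 (1438966_x_at) and -0.85 (1437718_x_at). All were lower, and controls 1 and 2 were the 2 highest arrays at each of the 6. The groups were separate at the main probe set, by a gap of 0.041, and at 1437718_x_at, by 0.316. They overlapped at 1437324_x_at, 1437685_x_at, 1415939_at and 1438966_x_at, so separation of Fmod depended on the probe set. The probe set without that suffix, 1415939_at, read 6.62, 6.60 and 5.54 in controls and 5.77, 5.57 and 5.62 in POMCDicerKO. Lum, lumican, read 6.07, 6.60 and 5.08 in controls against 5.86, 5.24 and 4.78. It overlapped widely, at -0.63 with a standard error of 0.40. Bgn, biglycan, the X-linked relative of decorin, differed least, at -0.16 with values from 6.81 to 7.48, the lowest of them in control 3.

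Collagen genes were lower on average by smaller steps. Col3a1, the chain of collagen III, read 8.33, 8.34 and 6.79 in controls and 7.49, 7.19 and 6.27 in POMCDicerKO. Here 2 of 3 POMCDicerKO arrays lay above control 3. The log2 fold change was -0.84 (standard error 0.46), and 0.19 with control 3 as the only control. Col1a2, the second chain of collagen I, read 9.41, 9.34 and 8.50 against 9.0, 8.80 and 8.43, a log2 fold change of -0.34 that turned to 0.24 against control 3 alone. A further probe set of it, 1423110_at, kept the same order at a lower level, from 5.55 to 6.89. Col1a1, the partner chain, was dim, with 5.44, 5.55 and 5.26 in controls and 5.29, 5.23 and 5.35 in POMCDicerKO. Its probe sets differed in sign, at -0.13 and 0.10, so its direction depended on the probe set.

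Controls 1 and 2 were also highest for the genes that act on collagen. Pcolce, which enhances the removal of the procollagen tail, read 6.70, 6.76 and 5.89 in controls and 6.00, 6.03 and 5.51 in POMCDicerKO, at -0.60 with a standard error of 0.24. Aebp1, a collagen-binding protein, read 7.15, 7.09 and 6.58 against 6.47, 6.82 and 6.74, at -0.27, and its further probe sets gave -0.29 (1422514_at) and, at a mean of 4.64, 0.07 (1459298_at). Of collagen VI, a beaded microfibril around cells, Col6a1 was at -0.20 and Col6a2 at -0.19. Col6a1 differed from the other collagens in that the 3 controls were close, at 6.79, 6.69 and 6.66, and POMCDicerKO array 1 was the lowest, at 6.29.

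Among other secreted proteins, Mgp had fully separate groups. Mgp, matrix Gla protein, an inhibitor of calcification that vessel walls also make, read 9.53, 9.28 and 8.71 in controls and 8.54, 7.96 and 8.47 in POMCDicerKO. The lowest control was 0.174 above the highest POMCDicerKO array. Means were 9.18 ± 0.42 and 8.32 ± 0.32 (SD, n = 3 each), a log2 fold change of -0.85 (standard error 0.23), 1.81-fold, and a two-sided exact permutation p of 0.1. It stayed at -0.39 with control 3 as the only control. Islr, an immunoglobulin and leucine-rich repeat protein of stromal cells, read 6.33, 7.0 and 5.27 against 5.34, 5.53 and 5.11, at -0.87 with a standard error of 0.38. Serping1, the inhibitor of complement C1, read 7.40, 7.35 and 6.46 against 6.53, 6.27 and 6.63, at -0.59. In both, control 3 lay among the POMCDicerKO arrays.

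The remaining matrix genes moved little. Fn1, fibronectin, read 9.06, 8.91 and 8.49 in controls and 8.53, 8.50 and 8.41 in POMCDicerKO, at -0.34 with a standard error of 0.14. Its dim further probe set, 1437218_at, gave 0.16. Cemip, a protein of hyaluronan breakdown, read 6.62, 6.72 and 6.51 against 6.51, 6.47 and 6.24, at -0.21, with 0.15 at its dimmest probe set. Fbln1, fibulin 1, was flat at its main probe set, with 6.44, 6.42 and 6.40 in controls and 6.40, 6.53 and 6.46 in POMCDicerKO. Its dimmer probe sets 1451119_a_at and 1422540_at gave -0.22 and -0.25 with groups that did not overlap, so the direction for Fbln1 depended on the probe set. Over all members, 22 genes had more than 1 probe set. Of the 33 further probe sets, 25 shared the sign of the main one, and the 8 that did not had means under 6.

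**Figure D3:**
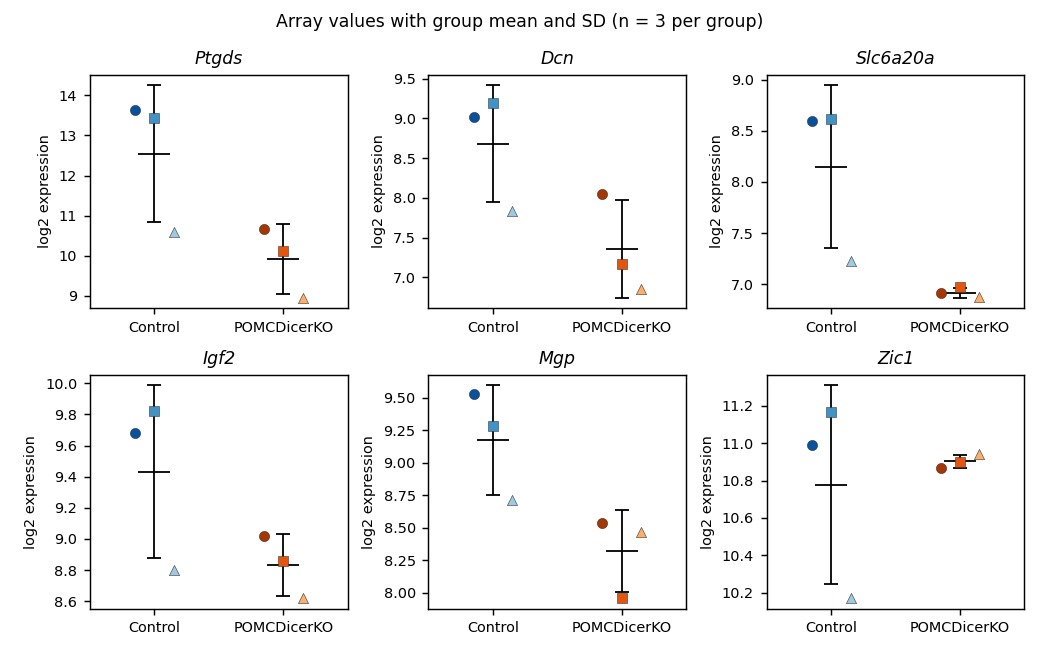
Log2 expression (vertical axes) of 6 members on each array, by group, with group means and SD (n = 3 per group). Circles, squares and triangles are replicates 1, 2 and 3. Control 3 lies at the POMCDicerKO level for Ptgds and Igf2, just above it for Slc6a20a and Mgp, and below every other array for Zic1.

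Transporters and surface proteins of the arachnoid barrier were lower on average at 6 of 6 genes, with a median of -0.43. Slc6a20a, a proline transporter, read 8.60, 8.62 and 7.23 in controls and 6.91, 6.97 and 6.87 in POMCDicerKO. The POMCDicerKO arrays spanned 0.10, and control 3 stood above all of them but 1.37 and 1.39 below the other controls. Means were 8.15 ± 0.80 and 6.92 ± 0.051 (SD, n = 3 each), with a log2 fold change of -1.23, a standard error of 0.34 and a two-sided exact permutation p of 0.1. Against control 3 alone the difference was -0.31. Slc13a4, a sulphate transporter, read 7.18, 7.16 and 6.20 against 6.21, 6.24 and 6.41, at -0.56. Slc6a13, a GABA transporter of the meninges, read 6.16, 6.34 and 5.37 against 5.55, 5.43 and 5.48, at -0.47. In both, control 3 was the lowest of the 6 arrays. Slc22a6, an organic anion transporter, was at -0.16.

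Gjb2, a gap junction connexin, read 6.54, 6.58 and 5.98 in controls against 5.96, 5.98 and 5.97 in POMCDicerKO. Its groups were separate, though control 3 all but touched the POMCDicerKO arrays. Its log2 fold change was -0.40, and -0.01 against control 3 alone. Asgr1, a subunit of the asialoglycoprotein receptor, was dim, from 3.82 to 4.31, at -0.21. The gap between lowest control and highest POMCDicerKO array was 0.257 for Slc6a20a, 0.174 for Mgp and 0.041 for the main probe set of Fmod. It was 0.001 for Gjb2 and 0.003 for Asgr1.

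Growth factor genes followed the matrix genes. Igf2, an imprinted growth factor that meninges and choroid plexus express, read 9.68, 9.82 and 8.80 in controls and 9.02, 8.86 and 8.62 in POMCDicerKO. The log2 fold change was -0.60 (standard error 0.25), 1.52-fold, and 0.03 against control 3 alone. Igfbp2, which binds insulin-like growth factors, read 6.82, 6.69 and 5.38 against 5.72, 5.77 and 4.81, at -0.86 with a standard error of 0.41. POMCDicerKO array 3 was the lowest for both, as it was for 19 of the 37 genes, against 23.6% of all genes.

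Transcription factors and RNA regulators differed least, with a median of -0.15 over 7 genes. Foxc1, a forkhead factor needed for the meninges to form, was at -0.10 at its main probe set and -0.37 at the dimmer 1419485_at, which read 5.17, 5.01 and 4.70 in controls and 4.75, 4.50 and 4.52 in POMCDicerKO. Foxd1, a further forkhead factor, was at -0.24, Osr1, an odd-skipped factor of mesenchyme, at -0.15, and Bicc1, an RNA-binding protein, at -0.15. Nupr1, a stress-induced nuclear protein, differed more, with 6.76, 6.33 and 5.33 against 5.71, 5.17 and 4.85, at -0.89 with a standard error of 0.36. Tbx18, a T-box factor that mural cells express as well, was among the 2 genes where controls 1 and 2 were not the highest. Its controls were close, at 5.65, 5.72 and 5.63, beside 5.69, 5.36 and 5.17 in POMCDicerKO.

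Zic1 departed from the set. This zinc finger factor is expressed in meninges and also in neural cells. It read 10.99, 11.17 and 10.17 in controls and 10.87, 10.90 and 10.94 in POMCDicerKO, so that control 3 alone was low and the POMCDicerKO arrays lay just below controls 1 and 2. The probe set 1439627_at had the same order, with 10.22, 10.52 and 9.32 against 10.19, 10.16 and 10.22. Log2 fold changes were 0.13 and 0.17, with standard errors of 0.23 and 0.27, and turned to -0.18 at both without control 3. Both gave a two-sided exact permutation p of 1.

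Between-array spread was wide for part of the set. A range of at least 1 log2 unit over the 6 arrays was found for 18 of 37 genes (48.6%), against 1.08% of all genes. The other 19 ranged less, such as Fbln1 (0.13) and Foxc1 (0.29). The widest were Ptgds (4.69), Fmod (3.27), Ogn (2.59), Dcn (2.33) and Col3a1 (2.07). The pattern did not depend on Ptgds, since without it the median log2 fold change was -0.42 and controls 1 to 3 stood at 0.265, 0.267 and -0.532. It was also alike in the 14 dim and 23 brighter genes, where control 3 stood at -0.571 in both.

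Further genes of meninges and fibroblasts, outside the 37, gave a weaker form of the same order on average, with exceptions. Of 25 measured, 21 were lower on average and 4 higher, 0 passed limma's adjusted threshold, and the median was -0.14. Controls 1 and 2 were the 2 highest arrays for 15 of 25, against 7.11% of all genes. Most were dim, with a mean under 6 for 15 of the 25. Over the 10 genes with a mean of at least 6 the median was -0.08. The groups were separate at 5 of 25 with POMCDicerKO lower, against 3.86% of all genes. They were separate at 1 with POMCDicerKO higher, against 2.58% of all genes. Averaged over the list, the controls stood at 0.168, 0.060 and -0.228 and the POMCDicerKO arrays at -0.146, -0.241 and -0.295. Slc47a1, an organic cation exporter, read 6.25, 5.37 and 4.92 in controls and 4.46, 4.38 and 4.01 in POMCDicerKO, at -1.23 with a standard error of 0.30. Bmp6, a bone morphogenetic protein, read 5.66, 5.86 and 5.46 against 5.06, 4.97 and 4.90, at -0.68 with a standard error of 0.11. Efemp1, a fibulin, and Foxc2, a forkhead factor, were at -0.89 and -0.39. In Bmp6, unlike most of the 37, control 3 lay nearer to the other controls than to POMCDicerKO. In Slc47a1 and Foxc2, control 3 also lay above every POMCDicerKO array.

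Genes of border macrophages and vessel cells varied less between arrays. Averaged over the list, the 8 border macrophage genes stood at 0.120, 0.064 and -0.184 in controls and -0.010, -0.205 and -0.203 in POMCDicerKO. Of them, 6 were lower and 2 higher, with a median of -0.10. Most were dim, and Mrc1, the mannose receptor, was at -0.43. On the summed log2 scale the list ran from 8.13 to 8.49 in controls and 8.13 to 8.36 in POMCDicerKO. Controls 1 and 2 were the 2 highest arrays at 4 of the 8 macrophage genes, against 7.11% of all genes. For the 11 endothelial genes they were the 2 highest arrays at 0, and for the 11 mural genes at 2. The endothelial and mural medians were 0.03 and 0.01. Among endothelial genes Flt1 was at 0.19, Tek at 0.15, Cldn5 at 0.14 and Emcn at -0.11. Among mural genes Pdgfrb was at -0.28, Vtn at -0.26, Rgs5 at 0.21 and Abcc9 at 0.20. Vtn, vitronectin, had controls 1 and 2 highest, with 8.97, 8.97 and 8.47 against 8.76, 8.35 and 8.49 in POMCDicerKO. Their summed levels ran from 11.37 to 11.42 and 11.48 to 11.77 in controls, and 11.36 to 11.48 and 11.58 to 11.80 in POMCDicerKO. The part of macrophages and mural cells in the difference was not tested.

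**Figure D4:**
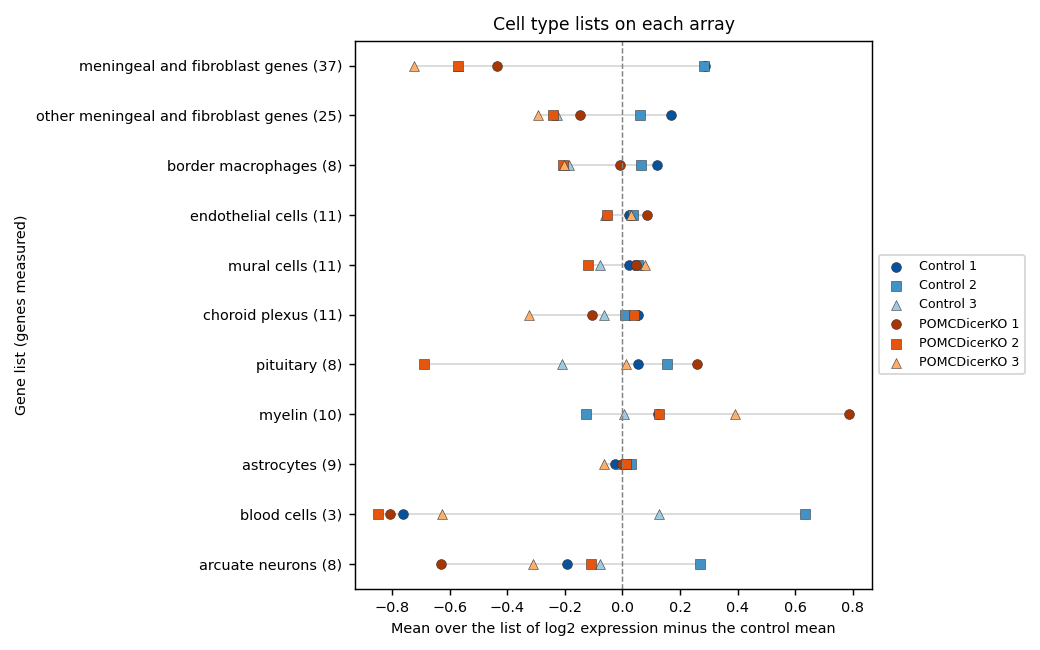
Mean over each list of log2 expression minus the gene's control mean (horizontal axis), for each array, with the number of genes measured in brackets (vertical axis). Controls 1 and 2 lie apart from the other arrays for the 37 meningeal and fibroblast genes. The averages of the endothelial, mural and astrocyte lists stay within 0.12 of the control mean on each array, though single genes vary more.

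Lists for other sources of Ptgds and Igf2, myelin and choroid plexus, were described in the same way. The part of these sources in the Ptgds and Igf2 differences was not tested. Of 10 myelin genes 0 were lower and 10 higher in POMCDicerKO, with a median of 0.45. Averaged over the list, control 2 was the lowest array at -0.128. Of 11 choroid plexus genes 7 were lower, with a median of -0.11, and controls 1 and 2 were the 2 highest arrays at 2, Kcnj13 and Sostdc1. Averaged over that list, the controls stood at 0.055, 0.010 and -0.065 and the POMCDicerKO arrays at -0.105, 0.041 and -0.325. Control 3 was the lowest control and POMCDicerKO array 3 the lowest array, as for the 37 genes. POMCDicerKO array 2 lay above control 2, unlike in the 37. Kcnj13, a potassium channel, read 5.40, 5.83 and 5.19 in controls and 5.21, 4.91 and 5.14 in POMCDicerKO, at -0.39. Ttr, transthyretin, read 10.99, 9.10 and 9.87 against 10.22, 11.41 and 7.20, at -0.38. Kl and Calml4 were at -0.34 and -0.32. The average over the astrocyte genes stayed between -0.065 and 0.030 on all 6 arrays, and their median log2 fold change was -0.06. Single genes varied more, such as Aqp4 with a range of 0.75. Cga, the glycoprotein hormone alpha chain made by the pituitary and its pars tuberalis under the brain, read 9.46, 9.87 and 7.80 in controls and 8.67, 5.08 and 6.27 in POMCDicerKO. Controls 1 and 2 were highest there too, and the part of such attached tissue in the difference was not tested.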

How the data were processed

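RNA of 6 samples was hybridised to arrays. The authors deposited 1 log2 value per probe set and array, made with RMA in affy, per the submitters' processing notes, which the sources used here give without versions. RMA normalises arrays by quantiles, so a difference shared by most transcripts would have been removed. Array medians lay between 6.02 and 6.05. The number of arrays limits the precision, and no hybridisation batch is labelled.

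Of the rows, 64 AFFX controls were dropped. The probe table gave 1 symbol to 34945 of 45037 probe sets, several to 932 and none to 9160. Symbols were updated by Entrez identifier (34741 found) in the RefSeq table of assembly GRCm38.p6, which holds names and the promoter windows shown. There were 0 unused sample columns.

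Genotypes were contrasted over all probe sets with limma 3.58.1 (lmFit, eBayes) in R 4.3.3, with Benjamini-Hochberg adjustment at 0.05. Fold changes are POMCDicerKO minus control in log2, with 95% intervals. For single values the two-sided exact permutation test was used (scipy 1.17.1). Lists were described by counts and medians, without a test. The limma step was tested on simulated data.

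Members and lists were chosen with earlier results of these data known. All 37 members are accounted for. Array values are given for members with a mean of at least 6 and a range of at least 1, and where probe sets differ in sign. Others (Foxc1 1419485_at, Ogn, Lum, Islr, Nupr1, Igfbp2, Col1a2, Col6a1, Aldh1a2, Crabp2, Slc13a4, Slc6a13, Gjb2, Tbx18) were chosen for this after their values were seen. Genes named from other lists are among the 4 of largest difference in their list, except Sostdc1, chosen after its values were seen.

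Alternatives were centring, a further quantile normalisation, filters at a mean of 6 and at the median level, a trended and robust prior, no moderation, array weights, 1 probe set per gene, the mean of a gene's probe sets, a replicate block, each array left out, and controls 1 and 2 left out together. Equal replicate numbers gave correlations of deviations of 0.128, 0.079 and 0.12, and unequal numbers gave -0.114 to -0.018. The labels give numbers but state no pairing, so equal numbers were not taken as pairs.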

Additional observations from a re-analysis of the deposited data

How the results depend on the processing

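The 37 genes kept 35 lower means and the median of -0.45 to within 0.02 with centring, a further quantile normalisation and array weights. A trended and robust prior, no moderation and 1 probe set per gene leave these fold changes unchanged by construction, so their equal medians are no check. Of the members' probe sets, 0 passed under any alternative but the omission of control 3. Filters at a mean of 6 and at the median level left 23 genes, with 21 lower and a median of -0.34. With the mean of a gene's probe sets, 36 were lower, the median was -0.31 and Fbln1 turned to -0.14. The count at an unadjusted p under 0.05, 14 of 37 (2.44% of all probe sets), was 9 and 8 under the filters (1.88% and 1.86%), 1 without moderation (2.66%), 9 with array weights (2.83%) and 22 with the replicate block (3.1%). It ran from 4 to 32 with single arrays left out (1.94% to 4.61%) and was 2 without controls 1 and 2 (4.15%). A trended and robust prior brought 1 of all probe sets past the threshold, and so did the omission of controls 1 and 2.

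With single arrays left out the median ran from -0.67 to -0.29, lower genes from 35 to 36, genes with separate groups in either direction from 5 to 35 (13% to 18.5% of all genes), member probe sets past the threshold from 0 to 2, and those of all probe sets from 0 to 2. Separation comes more easily with fewer arrays. Zic1 ran from -0.18 to 0.32 at 1423477_at and from -0.18 to 0.42 at 1439627_at. Without controls 1 and 2, 15 genes were lower, 12 had separate groups (43.6% of all genes) and the median turned to 0.021. Members that turned were Col1a1 (0.032), Col1a2 (0.24 and 0.21), Col3a1 (0.19), Aebp1 (0.095), Col6a2 (0.11 and 0.024), Lum (0.21), Fmod 1437324_x_at and 1415939_at (0.21 and 0.12), Bgn (0.26, 0.22 and 0.098), Islr (0.054), Serping1 (0.022), Slc6a13 (0.11), Slc22a6 (0.11), Slc13a4 (0.083), Aldh1a2 (0.021), Crabp2 (0.012), Cyp1b1 (0.012), Igf2 (0.030), Igfbp2 (0.061), Foxc1 (0.011), Foxd1 (0.13), Osr1 (0.20) and Nupr1 1419666_x_at (0.27). This setting leaves 1 control. Causes of these changes were not tested. In all, 823 of 855 member values kept their direction and side of the threshold, counting settings that cannot change a fold change. These values leave out some dim further probe sets. Among those left out are 1423669_at of Col1a1, 1441506_at of Dcn and 1437218_at of Fn1, whose sign differed from the main one.

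With the replicate number as a block the median was -0.45, unchanged by construction, and 0 probe sets passed. Each array correlated best with its own number, a hint from the data and not from the design, and the pairing was not used.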

Other observations

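Transcripts of other attached tissue varied between the arrays, some in orders of their own and some in the order of the meningeal genes. Gh, growth hormone of the anterior pituitary, read 6.24, 5.89 and 6.24 in controls and 8.92, 6.04 and 8.34 in POMCDicerKO, so that it was high on POMCDicerKO arrays 1 and 3 only. The log2 difference was 1.64 (standard error 0.64). The 8 measured pituitary genes had a median of -0.08, with 6 lower and 2 higher. Controls 1 and 2 were the 2 highest arrays at 3 of these 8 genes, Cga among them. Averaged over the list, the 37 meningeal genes were low on POMCDicerKO arrays 1 and 3 (-0.436 and -0.723). They were also low on control 3 (-0.571) and POMCDicerKO array 2 (-0.572), where Gh was not high.

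Of 3 measured blood cell genes, Alas2 and Slc4a1 were highest on controls 2 and 3. Alas2, the first enzyme of haem synthesis in red cell precursors, read 6.69, 8.93 and 7.88 in controls and 6.38, 6.68 and 6.79 in POMCDicerKO. Slc4a1, the anion exchanger of red cells, was at -0.91. Hba-a1, alpha globin, had another order, with 5.15, 5.31 and 5.10 against 5.21, 4.88 and 5.02. All 3 were lower on average, with a median of -0.91. Control 1, high in meningeal transcripts, was lower than control 3 in Alas2 and Slc4a1. The 8 measured arcuate neuron genes were lower on average at 8 of 8, with a median of -0.30. Averaged over the list, they were highest on control 2 (0.269) and lowest on POMCDicerKO array 1 (-0.630). The meningeal genes did not follow that order.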
